A study of Mus musculus with 10 samples.

Results

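The proteasome subunit genes of mouse quadriceps muscle were compared between animals that drank plain water and animals given a metabolite supplement called 1C-MIM. The members were all gene symbols made of Psma, Psmb, Psmc, Psmd, Psme or Psmf and a number. This gave 44 of 24063 symbols, and 5 of the 44 had several transcript entries, of which the one with the largest count over all libraries was kept. The proteasome is the multi-subunit protease that degrades ubiquitin-tagged proteins. Its core particle is a barrel in which alpha subunits form the gated outer rings and beta subunits form the proteolytic inner rings. A regulatory particle of ATPases and non-ATPase subunits binds, unfolds and feeds in substrates. In immune cells, and in other cells under interferon, Psmb8, Psmb9 and Psmb10 replace the constitutive catalytic subunits Psmb5, Psmb6 and Psmb7 to form the immunoproteasome, whose Psme1 and Psme2 activator favours peptides for antigen presentation. In muscle, the proteasome is known for breaking down contractile proteins during atrophy.

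Every animal was a wild-type C57BL mouse aged 17 to 20 months. The Control group (5 libraries) drank facility water, and the 1C-MIM group (5 libraries) drank the same water with the supplement for 1 to 3 months (what 1C-MIM contains is not stated by the labels). Each mouse had an injured tibialis anterior, and RNA was taken from its uninjured quadriceps. Each file name carries its own animal number. The labels give 150 mL of water and at most 5 mice in a cage, but not which mice shared a cage, nor sex or batch. The supplement was given in the water, so an effect of cage cannot be told apart from it. The p-values measure only the spread between these samples, which may not be independent.

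With 1 transcript kept per symbol, the libraries held 28521254 to 31771296 counts, and the 44 genes together took 121652 to 147427 of these, or 0.404 to 0.493%. As a check of the tissue label, 8 fibre genes such as Acta1 and Ckm summed to 194621 to 218105 counts per 1000000 (CPM) in Control and 210983 to 239469 CPM in 1C-MIM, with 3 of the 8 higher. Of 13880 genes that passed the filter on low counts, 11.8% were called lower and 9.78% higher in 1C-MIM (edgeR quasi-likelihood test, Benjamini-Hochberg adjusted p under 0.05). Among the members, 42 passed that filter.

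Proteasome genes differed little between the groups, by at most 0.48 on the log2 scale. In 1C-MIM muscle 7 of 42 (16.7%, against 11.8% of all tested genes) were lower, namely Psmb1, Psmb3, Psmb5, Psmb10, Psme1, Psme2 and Psmd10. Another 2 of 42 (4.76%, against 9.78%) were higher, Psmd1 and Psme4. The remaining 33 did not pass the test. The fold change was below 0 in 36 members and above 0 in 6, with a median of -0.12, where the median over all tested genes was 0.00. The groups did not overlap in 3 of 42 members, all higher in 1C-MIM (6.6% of all tested genes lay so), and 0 members were lower without overlap (7.98% of all tested genes). The 3 were Psmd1, Psmd2 and Psme4, of which Psmd2, named after its values were seen, did not pass the test.

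The count of 7 lower genes changed when a trend with transcript length was removed and when single libraries were left out. Proteasome transcripts are short, with a median of 1398 bases against 2817 over the tested genes. Among the 42 tested members fold changes followed transcript length (Spearman rho 0.74), and this relation was not measured over all tested genes. With each library's length trend removed, 1 member was lower, Psmb10, and 3 were higher, Psmd1, Psmd6 and Psmd11 (background 7.91% and 8.35%). The median of the members then was 0.03, against 0.02 over all tested genes, and groups without overlap were left in 2 members higher and 0 lower (6.53% and 6.05% of all tested genes). Without 1C-MIM 1 the lower count was 14 (1885 over all tested genes, against 1642), and without Control 5 it was 2 (1146). The lower count was 3 without Control 4 (1243), and 2 without 1C-MIM 2 (1246) or 1C-MIM 3 (1057). It was 1 without 1C-MIM 4 (941) or without Control 1 and Control 5 together (976). Scaling by library totals alone, which moved the median of all tested genes to -0.07, gave 23 lower and 1 higher members (2896 lower and 606 higher over all genes, against 1642 and 1357).

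Many members were high or low in the same libraries, but the shares over all tested genes were not computed. The fibre genes Acta1 and Ckm, which are not members, also peaked in Control 5 and 1C-MIM 1 within their groups, while the fibre gene Myh4 did not. Control 5 had the highest Control value in 27 of 42 members, and 1C-MIM 1 the highest 1C-MIM value in 33. 1C-MIM 2 was the lowest library of all 10 in 22 members. The median deviation of the 42 genes from their own means was 0.20 on the log2 scale in Control 5 and 0.10 in 1C-MIM 1, but -0.14 in 1C-MIM 2. After removal of the length trend these medians were 0.04, 0.09 and -0.04.

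**Figure D1:**
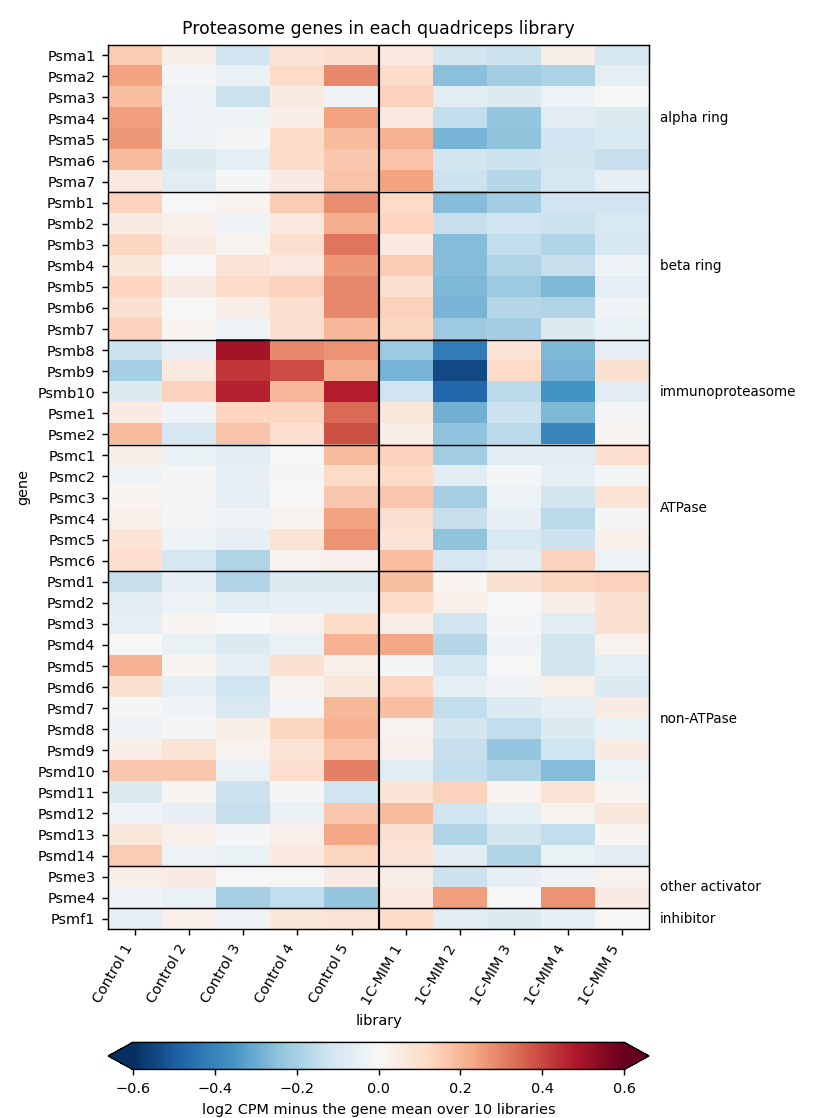
Heat map of 42 proteasome genes (rows, grouped by role) in 10 quadriceps libraries (columns), coloured by log2 CPM minus the gene's mean over the libraries, with colours saturating at the ends of the scale. Control 5 and 1C-MIM 1 are mostly red and 1C-MIM 2 mostly blue, and the immunoproteasome rows show the widest spread.

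The immunoproteasome genes had the lowest median of the roles compared, a log2 fold change of -0.36. All 5 had values below 0, and 3 of the 5 passed the test: Psmb10, Psme1 and Psme2 (60%, background 11.8%). The inducible catalytic genes were scarcer than the constitutive core genes. Per kilobase of transcript, the mean CPM was 5.11 for Psmb9, 7.72 for Psmb8 and 9.96 for Psmb10, while the 14 constitutive alpha and beta genes ranged from 27.1 to 215.

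Psmb10, which supplies the inducible counterpart of Psmb7, was at 11.7, 13.7, 17, 14.2 and 17.1 CPM in Control 1 to 5 and at 11.4, 8.9, 11.1, 9.64 and 11.8 CPM in 1C-MIM 1 to 5. The groups met only at their edges, where Control 1 lay just below 1C-MIM 5. The means were 14.7 ± 2.33 and 10.6 ± 1.24 CPM (SD, n = 5), and by the fitted fold change Psmb10 fell by 28.3% (log2 -0.48, SE 0.11, edgeR adjusted p = 0.0114). Psmb10 was the only member called lower once the length trend was removed (-0.31, SE 0.10, edgeR adjusted p = 0.0392). Its call held in 23 alternatives, with values of -0.56 to -0.30. Where the trend was removed and libraries were also left out, it held in 4 of 11 fits, and the edgeR adjusted p reached 0.0985.

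Psmb8 and Psmb9 both lie in the class II region of the major histocompatibility complex. Psmb8, the inducible chymotrypsin-like subunit, was at 8.45, 8.97, 13.2, 11.3 and 11.2 CPM in Control and at 7.94, 6.9, 9.83, 7.7 and 8.93 CPM in 1C-MIM. The log2 fold change was -0.36 (SE 0.13, edgeR adjusted p = 0.0576), just outside the threshold, and -0.18 without the length trend (SE 0.12, edgeR adjusted p = 0.307). Psmb9 was at 3.49, 4.21, 5.44, 5.29 and 4.71 CPM in Control and at 3.32, 2.75, 4.38, 3.3 and 4.3 CPM in 1C-MIM (log2 fold change -0.36, SE 0.15, edgeR adjusted p = 0.107). Control 3 had the highest level of both genes, 1C-MIM 3 lay highest among the supplemented animals, and the groups overlapped.

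Psme1 and Psme2 encode the ring-shaped activator that interferon induces together with these subunits. Psme1 was at 41.5, 39.4, 43.8, 43.9 and 50.8 CPM in Control and at 42, 32.7, 36.5, 33.3 and 39.8 CPM in 1C-MIM (log2 fold change -0.25, SE 0.08, edgeR adjusted p = 0.0485). Psme2 was at 23, 18.8, 22.6, 21.6 and 26.2 CPM in Control and at 20.7, 17.1, 18, 15.3 and 20.2 CPM in 1C-MIM (log2 fold change -0.30, SE 0.10, edgeR adjusted p = 0.0435). Control 5 was highest and the groups overlapped in both genes. Neither call held with the length trend removed (-0.05 and -0.09, edgeR adjusted p = 0.547 and 0.377), and each was lost in 7 of the 10 fits that left out a single library.

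**Figure D2:**
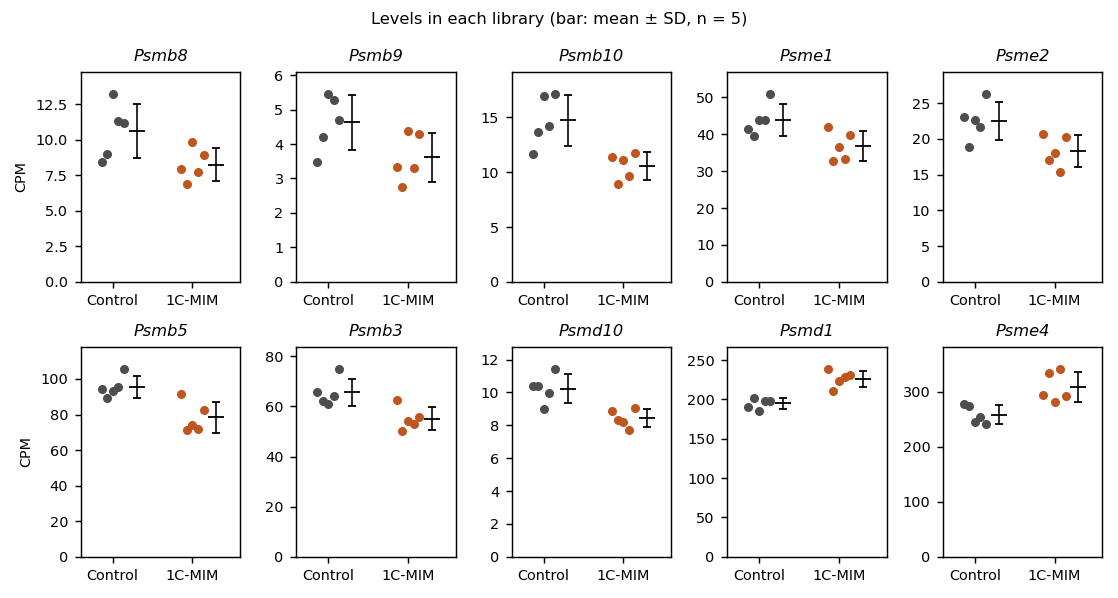
CPM in each library (points; grey Control, orange 1C-MIM) for the 5 immunoproteasome genes and Psmb5, Psmb3, Psmd10, Psmd1 and Psme4, with the mean and SD of 5 libraries beside each group on axes from 0. Only Psmd1 and Psme4 show groups without overlap.

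Markers of leukocytes, cells rich in immunoproteasomes, changed in the same direction. Of 18 leukocyte genes 16 could be tested, and 13 of them were lower (background 11.8%) and 0 higher, with a median log2 fold change of -1.06; with the length trend removed 12 were lower. Summed over the list, Control libraries held 599, 450, 793, 637 and 676 CPM, and 1C-MIM libraries 272, 329, 351, 305 and 348 CPM, so the groups did not overlap. The order of single libraries matched in part between this sum and the inducible genes. Control 3 was highest for the sum, Psmb8 and Psmb9, but Control 5 for Psmb10. The lowest Control was Control 2 for the sum and Control 1 for all 3 genes. Among 1C-MIM libraries, 1C-MIM 3 and then 1C-MIM 5 were highest for the sum, Psmb8 and Psmb9, while 1C-MIM 5 was highest for Psmb10. The lowest was 1C-MIM 1 for the sum and 1C-MIM 2 for all 3 genes. For Psmb8, Control 1 and Control 2 lay below 1C-MIM 3, at 8.45 and 8.97 against 9.83 CPM, with leukocyte sums of 599, 450 and 351 CPM. Control 3, Control 4 and Control 5 lay above every 1C-MIM library for both Psmb8 and the sum. The B-cell gene Ms4a1 averaged 0.35 CPM in Control, and no marker was at 0 throughout. The part of leukocytes in the immunoproteasome values was not tested, and in bulk tissue fewer cells of a type and less RNA per cell cannot be told apart. Of 5 endothelial markers 4 were higher (background 9.78%; median 0.37), and 2 with the length trend removed. Of 5 fibroblast markers 3 were lower (background 11.8%; median -0.46), as many as with the trend removed.

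The inducible subunits were a small part of each catalytic pair. By CPM per kilobase, Psmb8 made up 7.33 ± 1.2% of Psmb8 and Psmb5 together in Control and 7.02 ± 1.05% in 1C-MIM (SD, n = 5). The log2 ratio of their counts differed by -0.07 between the groups (exact permutation test over the libraries, two-sided, p = 0.675, adjusted over 3 pairs 0.675). Psmb9 made up 3.76 ± 0.683% of its pair with Psmb6 in Control and 3.39 ± 0.657% in 1C-MIM, a difference in log2 ratio of -0.16 (exact permutation p = 0.405, adjusted 0.607) that ran from -0.25 without Control 1 or 1C-MIM 3 to -0.07 without 1C-MIM 1. Both differences lay within the spread between animals, and Control 3 had the highest share in each pair.

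Psmb10 made up 4.88 ± 0.827% of its pair with Psmb7 in Control and 3.96 ± 0.416% in 1C-MIM. The shares were 3.75, 4.77, 6.01, 4.65 and 5.19% in Control 1 to 5 and 3.69, 3.67, 4.52, 3.62 and 4.29% in 1C-MIM 1 to 5. The log2 ratio differed by -0.30 (exact permutation p = 0.0397), but the difference did not pass after adjustment over the 3 pairs (0.119), where the smallest unadjusted p the design allows is 0.00794. On counts freed of the length trend it was -0.33 (exact permutation p = 0.0397, adjusted 0.119). Single omissions gave -0.40 without Control 1 (adjusted exact permutation p = 0.0476) to -0.22 without Control 3 (adjusted 0.286), and none but that of Control 1 passed after adjustment.

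**Figure D3:**
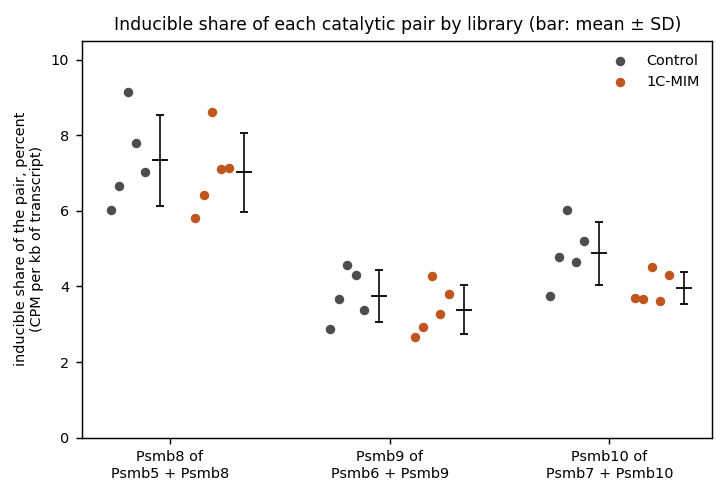
Share of the inducible subunit in each catalytic pair, in percent of the pair's summed CPM per kilobase of transcript, for each Control (grey) and 1C-MIM (orange) library, with mean and SD of 5 libraries. The groups overlap in all 3 pairs, and Psmb10 shows the largest gap between the means, 4.88 against 3.96%.

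The 250 bases before the RefSeq start of these catalytic genes are shown because Nfe2l1 and interferon signalling are known to act on proteasome genes through elements near the start. They come from RefSeq on build GRCm38.p6, which is not the GRCm39 build of the count tables, and are matched by symbol; 37 of the 44 members had a window, and Psmb7 had none. Capitals mark matches, on either strand, to the antioxidant response element core TGACNNNGC, the interferon-stimulated response element core, the gamma-activated site TTCNNNGAA and the CCAAT box CCAAT.
Psmb5: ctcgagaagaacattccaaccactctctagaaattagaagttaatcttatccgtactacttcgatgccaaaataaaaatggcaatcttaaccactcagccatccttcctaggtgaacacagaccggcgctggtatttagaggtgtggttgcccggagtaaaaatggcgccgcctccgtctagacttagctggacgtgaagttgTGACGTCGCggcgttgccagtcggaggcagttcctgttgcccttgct
Psmb6: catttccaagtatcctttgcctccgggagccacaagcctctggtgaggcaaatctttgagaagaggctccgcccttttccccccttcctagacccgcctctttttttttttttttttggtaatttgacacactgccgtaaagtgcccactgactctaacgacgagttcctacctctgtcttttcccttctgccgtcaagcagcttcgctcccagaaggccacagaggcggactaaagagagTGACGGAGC
Psmb8: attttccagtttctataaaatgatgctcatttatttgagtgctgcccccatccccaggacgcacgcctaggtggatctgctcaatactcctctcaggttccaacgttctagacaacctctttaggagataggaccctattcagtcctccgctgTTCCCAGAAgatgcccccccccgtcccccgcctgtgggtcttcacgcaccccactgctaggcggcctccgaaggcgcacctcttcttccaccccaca
Psmb9: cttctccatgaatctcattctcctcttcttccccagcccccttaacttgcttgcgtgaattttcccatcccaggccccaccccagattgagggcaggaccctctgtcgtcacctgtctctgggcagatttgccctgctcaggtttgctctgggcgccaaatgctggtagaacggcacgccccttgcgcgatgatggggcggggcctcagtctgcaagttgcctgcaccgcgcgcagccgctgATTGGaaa
Psmb10: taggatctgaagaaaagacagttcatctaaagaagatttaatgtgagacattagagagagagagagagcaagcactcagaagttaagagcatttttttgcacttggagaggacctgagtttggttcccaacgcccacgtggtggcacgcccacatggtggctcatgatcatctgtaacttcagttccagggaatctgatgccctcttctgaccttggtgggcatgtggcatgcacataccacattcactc

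Psmb5 (chr14:54617996-54618245, minus strand) and Psmb6 (chr11:70525107-70525356, plus strand) each held 1 antioxidant response element core, beginning 47 and 9 bases before the start. This is the element bound by Nfe2l1, the factor that raises proteasome genes when proteolysis is impaired. Psmb8 (chr17:34197945-34198194, plus strand) held 1 gamma-activated site, Psmb9 (chr17:34187331-34187580, minus strand) 1 CCAAT box, and Psmb10 (chr8:105938393-105938642, minus strand) had 0 matches. Among the 40 windows of members, 12.5% held the antioxidant core against 10.2% of all 32851 windows, and 7.5% the interferon core against 2.98%. The interferon core was in 3 windows, those of Psmb3, Psmd4 and Psmd9, none of them an immunoproteasome gene. The gamma-activated site was in 2.5% against 7.02%, and the CCAAT box in 35% against 33.8%. The 20 bases searched just after the RefSeq start were found in 2 of 2 GENCODE transcripts of Psmb5 and 4 of 7 of Psmb9, but in 1 of 4 of Psmb6, 1 of 7 of Psmb8 and 1 of 7 of Psmb10, so these windows may not stand before the start of every transcript. A match describes letters in the window, not a bound site.

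In the constitutive core, the beta ring had 3 of 7 genes lower (42.9%, background 11.8%) and the alpha ring 0 of 7, with medians of -0.20 and -0.13; no core gene was higher. Psmb5, the chymotrypsin-like catalytic subunit, was at 94.2, 89.3, 93.2, 95.3 and 105.4 CPM in Control and at 91.8, 71.5, 74.3, 71.8 and 82.7 CPM in 1C-MIM. Only 1C-MIM 1 reached the Control range. Its mean fell from 95.5 ± 5.98 to 78.4 ± 8.76 CPM (SD, n = 5; log2 fold change -0.28, SE 0.08, edgeR adjusted p = 0.0188). Removal of the length trend left -0.08 (edgeR adjusted p = 0.256), and the call was also lost without 1C-MIM 3 or 1C-MIM 4 (edgeR adjusted p = 0.0565 and 0.0637).

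Psmb3, a structural beta subunit, was at 65.8, 62.2, 61, 64.1 and 74.8 CPM in Control and at 62.6, 50.1, 54.2, 52.8 and 55.9 CPM in 1C-MIM (log2 fold change -0.25, SE 0.07, edgeR adjusted p = 0.0262). As in Psmb5, 1C-MIM 1 alone lay within the Control range. The third lower gene, Psmb1, another structural subunit named after its values were seen, stood at -0.24 on the log2 scale (SE 0.08, edgeR adjusted p = 0.044); leaving out single libraries ended the call of Psmb1 in 7 of 10 fits and that of Psmb3 in 4. Without the length trend both stood at -0.04 (edgeR adjusted p = 0.615).

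The catalytic subunits Psmb6 and Psmb7 did not pass the test. Psmb6, with caspase-like activity, was at 151.2, 141.8, 145.7, 151.8 and 173.5 CPM in Control and at 156.4, 117.1, 125.9, 125 and 140.3 CPM in 1C-MIM (log2 fold change -0.20, SE 0.08, edgeR adjusted p = 0.0891). Psmb7, with trypsin-like activity, was at 228.8, 208.1, 202.9, 222.7 and 238.6 CPM in Control and at 226.8, 178.3, 179, 195.9 and 201 CPM in 1C-MIM (log2 fold change -0.17, SE 0.07, edgeR adjusted p = 0.114). Psmb7 was the most abundant member per kilobase, at 215 CPM. Psmb2, the beta gene with the largest p, was at 64.1, 63, 60.9, 64.3 and 71.9 CPM in Control and 67.7, 56.3, 57, 56.7 and 58.1 CPM in 1C-MIM (-0.13, SE 0.07, edgeR adjusted p = 0.159). Psmb4 had a log2 fold change of -0.18 (SE 0.08).

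In the alpha ring, which gates entry to the core, log2 fold changes ran from -0.24 to -0.02. Psma2 was at 95.7, 80.8, 79, 88 and 99.3 CPM in Control and at 87.5, 68.3, 70.3, 71.1 and 77.7 CPM in 1C-MIM (log2 fold change -0.24, SE 0.08, edgeR adjusted p = 0.053). Psma4 was at 95, 79.2, 78.3, 82.2 and 94.7 CPM in Control and at 83.5, 72.4, 68.2, 76.1 and 75.8 CPM in 1C-MIM (-0.19, SE 0.07, edgeR adjusted p = 0.0773). In both, 1C-MIM 1 lay inside the Control range and the other 4 below it. Psma3 had the largest p of the ring, with 66.3, 57.2, 53.6, 60.6 and 57.6 CPM in Control and 64.5, 55.6, 55.3, 57.4 and 58.4 CPM in 1C-MIM (-0.02, SE 0.07, edgeR adjusted p = 0.848). Psma5 had -0.20, Psma6 -0.13, Psma1 -0.10 and Psma7 -0.07. Freed of the length trend, the 14 core genes had a median of 0.01, with 7 below 0 and 7 above.

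The regulatory particle had a median of -0.03 over 20 genes, with 1 higher and 1 lower (background 9.78% and 11.8%). Among the ATPases, the ring that unfolds substrates, 0 of 6 passed the test (background 21.6% in either direction) and the values ran from -0.14 to 0.05. Psmc5 was at 176, 162.5, 161.1, 175.3 and 199.9 CPM in Control and at 176.3, 140.7, 156.5, 151.4 and 170 CPM in 1C-MIM (-0.14, SE 0.08, edgeR adjusted p = 0.197). Psmc4 was at 105.4, 102.1, 101.5, 104.6 and 121.7 CPM in Control and at 110.6, 93.5, 99.5, 92.3 and 102.3 CPM in 1C-MIM (-0.10, SE 0.07, edgeR adjusted p = 0.28). The groups overlapped in both genes, with Control 5 on top. Psmc2, the ATPase with the largest p, was at 139.2, 140.4, 136.3, 140.1 and 154 CPM in Control against 153, 134.9, 139.9, 136.2 and 139.8 CPM in 1C-MIM (-0.01, SE 0.06, edgeR adjusted p = 0.892). Psmc6 had 0.05, Psmc1 -0.05 and Psmc3 -0.04.

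Psmd1, the largest scaffold subunit of the regulatory particle, rose in 1C-MIM. It was at 191, 202.4, 184.9, 198.1 and 198.1 CPM in Control and at 238.2, 210.6, 223.1, 228.9 and 230.9 CPM in 1C-MIM, so that every supplemented animal lay above every Control. The mean went from 195 ± 6.92 to 226 ± 10.3 CPM (SD, n = 5), or 16.1% higher by the fitted fold change (log2 0.22, SE 0.05, edgeR adjusted p = 0.012). Its call held in the same 23 alternatives, with values of 0.14 to 0.24, and with the length trend removed it was 0.20 (SE 0.06, edgeR adjusted p = 0.0235). Once libraries were left out as well, it held in 6 of 11 fits (edgeR adjusted p up to 0.0592).

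Psmd10, an assembly chaperone of the regulatory particle also known as gankyrin, was lower. It was at 10.4, 10.4, 8.99, 9.94 and 11.4 CPM in Control and at 8.84, 8.35, 8.17, 7.7 and 9.06 CPM in 1C-MIM, overlapping only between Control 3 and 1C-MIM 5 (log2 fold change -0.28, SE 0.08, edgeR adjusted p = 0.0285). Removal of the length trend left -0.11 (edgeR adjusted p = 0.299), and 5 of the 10 fits without a single library lost the call. The assembly chaperones Psmd9 and Psmd5 had -0.16 (SE 0.07, edgeR adjusted p = 0.0951) and -0.12 (SE 0.06, edgeR adjusted p = 0.192).

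Psmd6, a lid subunit, had the largest p among non-ATPases as counted, with 140.1, 126.7, 120.5, 133.3 and 138.2 CPM in Control and 143.2, 125.8, 129.7, 133.6 and 123.8 CPM in 1C-MIM (-0.01, SE 0.06, edgeR adjusted p = 0.956). Freed of the length trend, Psmd6 was at 0.17 (SE 0.05, edgeR adjusted p = 0.0418), a call that held in 3 of 11 fits with libraries left out. Psmd11, another lid subunit and named after its values were seen, was at 87.8, 93.8, 85, 92.3 and 85.6 CPM in Control and at 97.9, 102.2, 94.4, 98.4 and 93.6 CPM in 1C-MIM. The groups of Psmd11 touched only between Control 2 and 1C-MIM 5. Its fold change was 0.13 as counted (SE 0.05, edgeR adjusted p = 0.084) and 0.25 without the length trend (SE 0.06, edgeR adjusted p = 0.00746), where its call held in all 11 fits with libraries left out.

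Psmd2, the other large scaffold subunit and the partner of Psmd1 in the base, was at 298.7, 307.6, 298.5, 302.8 and 303.7 CPM in Control and at 338.9, 320.7, 314.6, 321.8 and 333.9 CPM in 1C-MIM. Its groups did not overlap, but the fold change did not pass the test (0.11, SE 0.05, edgeR adjusted p = 0.102). Of the 2 transcript entries of Psmd2, the one kept by its count is a RefSeq record of the non-coding class. These values are therefore those of that entry. The coefficient of variation of Psmd2 in Control was 1.25%, against 18.1% for Psmb8. The remaining non-ATPases, among them the ubiquitin receptor Psmd4 (-0.02) and the deubiquitinase Psmd14 (-0.11), ran from -0.14 for Psmd8 and Psmd13 to 0.04 for Psmd12, with Psmd3 at -0.03 and Psmd7 at -0.02.

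Of the activators outside the immunoproteasome, Psme4 rose. Psme4 encodes a large nuclear activator that acts without ATP, and its transcript, at 6442 bases, was the longest of the family. It was at 278.2, 274.1, 244.7, 254.6 and 240.5 CPM in Control and at 294.4, 334.2, 280.9, 340.4 and 291.3 CPM in 1C-MIM, with no overlap (258 ± 17 against 308 ± 27.1 CPM, SD, n = 5; log2 fold change 0.25, SE 0.07, edgeR adjusted p = 0.0205). Removal of the length trend left 0.10 (SE 0.06, edgeR adjusted p = 0.255). The call was also lost without 1C-MIM 4 (edgeR adjusted p = 0.0588) and with library totals alone (0.18, edgeR adjusted p = 0.1).

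Psme3, the nuclear relative of Psme1 and Psme2, was at 65, 65.5, 63.1, 63.3 and 65.7 CPM in Control and at 65.1, 57.9, 61.3, 62.3 and 64.2 CPM in 1C-MIM (-0.05, SE 0.05, edgeR adjusted p = 0.454). Psmf1, a regulator first described as an inhibitor of the core particle, was at 19, 20.1, 19.4, 20.6 and 20.8 CPM in Control and at 21.2, 18.8, 18.7, 19 and 19.7 CPM in 1C-MIM (-0.04, SE 0.06, edgeR adjusted p = 0.682). Their groups overlapped, with differences within the spread between animals. The tissue-specific members could not be tested: Psma8, an alpha subunit of the testis, had 16 reads over all libraries (0 to 5 in each), and Psmb11, a beta subunit of the thymus, had 2 (0 to 1 in each).

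Across the 42 members, fold change and transcript length ran together, with a Spearman rho of 0.74 as counted and 0.42 with the length trend removed; all points share the same 10 libraries. Among the 19 transcripts shorter than 1300 bases, 6 were lower and 0 higher, with a median of -0.20. Over tested genes of all lengths, 11.8% were lower and 9.78% higher, and the shares among genes of like length were not computed. In the 15 from 1300 to 2000 bases, 1 was lower and the median was -0.04. Of the 8 from 2000 bases on, 2 were higher and the median was -0.03. The immunoproteasome genes lay at the lower edge of this pattern. Their median was -0.15 with the trend removed, with all 5 values below 0, while it was -0.01 for the constitutive beta ring, 0.07 for the alpha ring, 0.10 for the ATPases and 0.08 for the non-ATPases. No difference between these groups was tested.

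**Figure D4:**
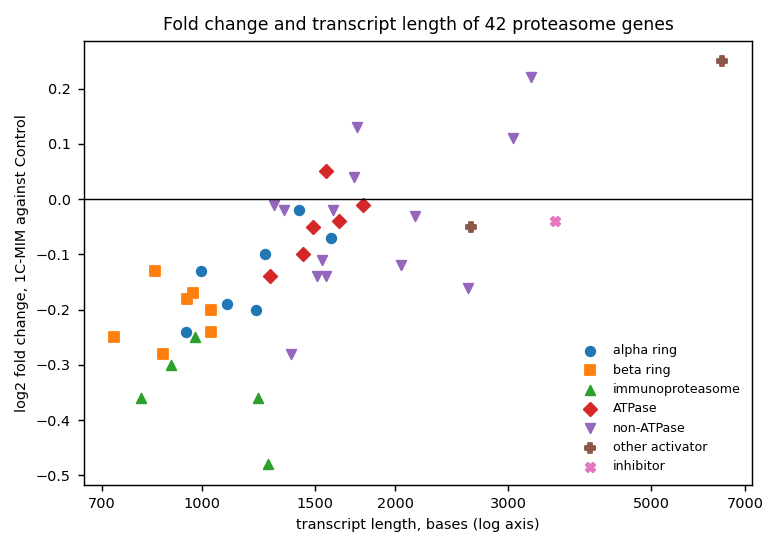
Log2 fold change of 1C-MIM against Control (vertical axis) against transcript length in bases (log axis) for 42 proteasome genes, with a symbol for each role. Short beta and immunoproteasome transcripts lie below 0, and Psme4, the longest at 6442 bases, lies highest at 0.25.

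**Figure D5:**
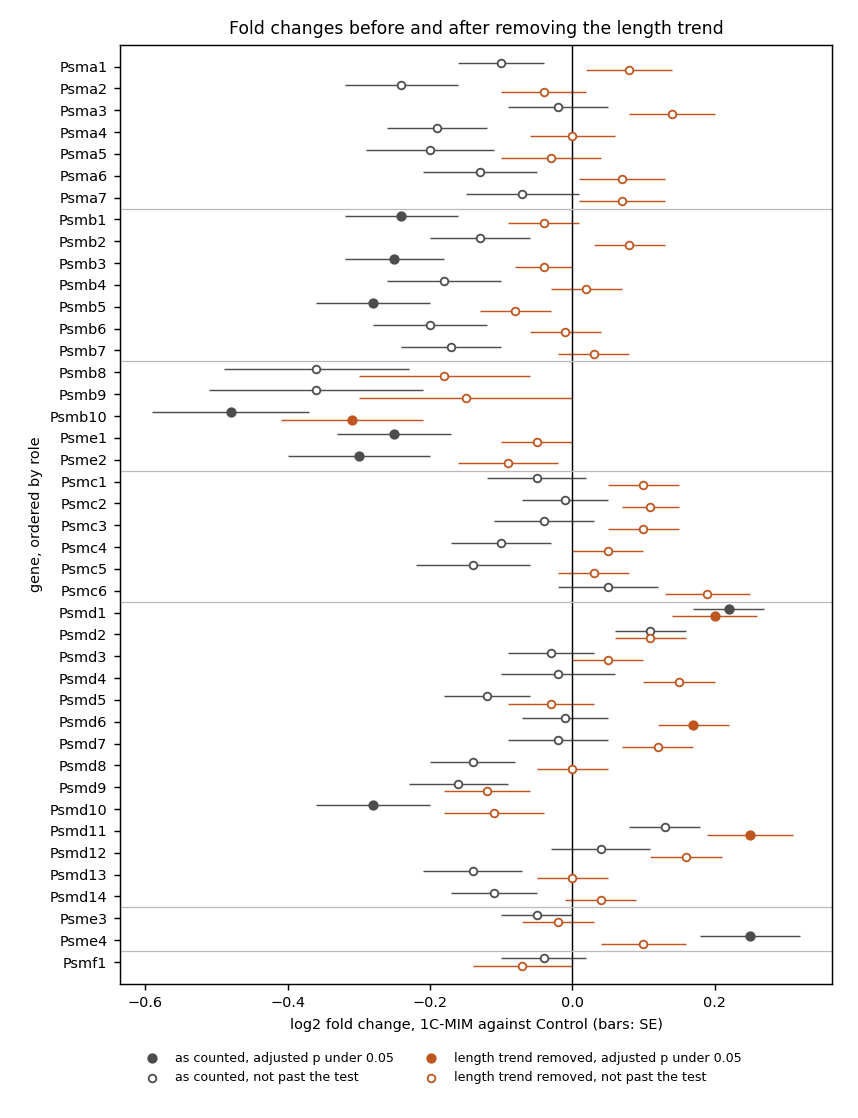
Log2 fold change of each proteasome gene with its SE, as counted (grey) and with each library's length trend removed (orange); filled points have an edgeR adjusted p under 0.05. As counted 7 genes are lower and 2 higher, and after removal of the trend Psmb10 is lower and Psmd1, Psmd6 and Psmd11 are higher.

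Genes that work with the proteasome were read from lists. Of 6 assembly chaperones 5 were found in the tables, and 0 passed the test (background 21.6% in either direction), although all 5 had values below 0 (median -0.28, and -0.06 with the length trend removed). Psmg3 had -0.35 (SE 0.13, edgeR adjusted p = 0.0672) and Psmg1 -0.21 (SE 0.08, edgeR adjusted p = 0.0675); both help to build the alpha ring. Of 13 partners, 3 were higher and 0 lower (background 9.78% and 11.8%; median 0.08). These were Ecpas, an adaptor that binds the assembled proteasome (0.26, SE 0.06, edgeR adjusted p = 0.00991), Zfand5, which stimulates degradation in atrophying muscle (0.24, SE 0.06, edgeR adjusted p = 0.0162), and Ubqln2, a shuttle for ubiquitinated proteins named after its value was seen (0.26, SE 0.07, edgeR adjusted p = 0.0205). Without the length trend, Ecpas was at 0.13 (edgeR adjusted p = 0.107) and Zfand5 at 0.06 (edgeR adjusted p = 0.565), while Ubqln2 kept 0.25 (edgeR adjusted p = 0.0143).

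Among the genes around Nfe2l1, which controls proteasome gene transcription, Ddi2 was higher. Ddi2, the protease that releases active Nfe2l1, was at 49.7, 38.8, 33.3, 35.3 and 26.6 CPM in Control and at 49.9, 51.4, 73, 60.6 and 50.7 CPM in 1C-MIM, which differed by 0.64 on the log2 scale (SE 0.15, edgeR adjusted p = 0.0144) and by 0.61 with the length trend removed (edgeR adjusted p = 0.0237). The groups of Ddi2 did not overlap, though Control 1 lay within 1 CPM of 1C-MIM 1. Nfe2l1 itself was at 850.8, 977.7, 865.3, 915.9 and 800 CPM in Control and at 933.1, 916, 993.3, 956.3 and 953 CPM in 1C-MIM (0.11, SE 0.06, edgeR adjusted p = 0.201).

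Of 5 ubiquitin genes, 1 was lower (background 11.8%), Rps27a, a fusion of ubiquitin with a ribosomal protein (-0.43, SE 0.11, edgeR adjusted p = 0.0173; -0.22 with the length trend removed, edgeR adjusted p = 0.0676). Among 11 genes of interferon signalling and peptide loading, which are often induced with the immunoproteasome, 2 were lower and 0 higher (background 11.8% and 9.78%; median -0.08). The class I light chain B2m had -0.31 (SE 0.09, edgeR adjusted p = 0.0232) and the loading chaperone Tapbp -0.21 (SE 0.07, edgeR adjusted p = 0.0465), and neither passed without the length trend (edgeR adjusted p = 0.404 and 0.0654). Tap1, the peptide transporter gene next to Psmb9, was at 4.72, 6.33, 12.9, 9.55 and 8.52 CPM in Control and at 5.91, 5.67, 9.43, 7.07 and 7.54 CPM in 1C-MIM (-0.24, SE 0.24, edgeR adjusted p = 0.484). As for Psmb8 and Psmb9, its highest Control value was in Control 3 and its highest 1C-MIM value in 1C-MIM 3.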

How the data were processed

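RNA-seq of quadriceps from 5 Control and 5 1C-MIM mice was analysed. Per the file headers, each table the authors deposited has 33984 transcripts with columns for count, FPKM and TPM. The deposited counts are whole numbers with no normalization. The FPKM values deposited by the authors served only to recover transcript lengths, and the TPM were not used. Build GRCm39 and, among other tools, STAR, featureCounts (Subread 2.0.1), Salmon 1.5.2 and DESeq2 1.28.0 are listed in the submitters' processing notes, without roles, and no source used here states the strandedness.

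For each symbol the transcript with the largest total was kept. Counts were filtered with filterByExpr, scaled with TMM and compared with edgeR 4.0.16 (R 4.3.3; quasi-likelihood F test, robust, Benjamini-Hochberg over all 13880 genes), after tests on simulated data. CPM use TMM-scaled library sizes. SE is the log2 fold change over the root of F. For the length trend, each library's log2 CPM deviations (prior count 2) were fitted on log2 length with natural splines (3 inner knots) and entered as offsets. Ratios used a prior of 0.5 counts. Alternatives were other scalings, filters, DESeq2 1.42.0, limma-voom (limma 3.58.1), blocks, summed transcripts and omitted libraries; combinations of the length trend with omitted libraries or library totals were added after seeing the data. Values per library are given for the immunoproteasome genes, their counterparts, Psmf1, and in each ring or particle class the 2 genes with the smallest p and that with the largest. Some genes of the lists are not reported here. The members, lists and tests were chosen with earlier results of these data known. Each library held 28521254 counts or more, and the part of counting in the spread of the members was not tested. No member's counts lay within 1% of another symbol's in every library.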

Additional observations from a re-analysis of the deposited data

Results flagged for a closer look

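In 9 of 84 groups of 5 libraries examined for the members, the highest library stood apart from the others by more than Dixon's critical value for 5 samples (a gap of 0.71 of the range); chance flags about 1 in 20 groups, and the members of a library move together. Control 5 was the high library for Psmb4 (166 CPM, next 145), Psmc2 (154, next 140), Psmc4 (122, next 105), Psmd4 (207, next 179) and Psmd7 (195, next 169). 1C-MIM 1 was the high library for Psma6 (120 CPM, next 99), Psma7 (109, next 88.8), Psmb2 (67.7, next 58.1) and Psmc2 (153, next 140). None of these 8 genes passed the edgeR test between the groups.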

How the results depend on the processing

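Psmb10 and Psmd1 kept their direction and their call in 23 alternatives, but with the length trend removed and libraries left out together Psmb10 was called in 4 of 11 fits (edgeR adjusted p up to 0.0985) and Psmd1 in 6 of 11 (up to 0.0592). Lower members numbered 7, and 23 with library totals alone, 13 at an adjusted p under 0.1, 4 with a block for animals numbered in the 200s or 300s, and 1 with the length trend removed or without Control 1 and Control 5; leaving out single libraries gave 1 to 14. Higher members numbered 2, with 1 for library totals, 4 for the DESeq2 test, and 1 to 2 without single libraries. With the length trend removed they numbered 3 (5 without Control 1 and Control 5, 1 to 5 without single libraries) and lower members 0 to 1. Over all genes, library totals gave 606 higher and 2896 lower, and an adjusted p under 0.1 gave 2114 higher and 2363 lower. The block for animal numbers gave 1500 lower, and the DESeq2 test 1795 higher. Omission of Control 1 and Control 5 gave 832 higher and 976 lower. Single omissions gave 739 to 1558 higher and 941 to 1885 lower.

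Whether the replicate numbers of the titles pair the animals was not settled, since a correlation over genes cannot decide it. Deviations of same-numbered libraries correlated from -0.0752 to 0.387, and 2 of 5 Controls were correlated best with their own number. The log2 ratio of Psmb8 to Psmb5 was -3.47, -3.31, -2.82, -3.07 and -3.23 in Control 1 to 5. In 1C-MIM 1 to 5 this ratio was -3.53, -3.37, -2.92, -3.22 and -3.21. With the replicate block 15 members were lower, against 7 without it (1965 and 1642 over all tested genes). With the replicate block and the length trend removed, 5 were higher and 1 lower (1394 and 1242 over all tested genes). The block alone took the SE of Psmb8 from 0.13 to 0.08 (edgeR adjusted p = 0.0118) and that of Psmd1 from 0.05 to 0.06 (edgeR adjusted p = 0.0162). For the ratios, signs were flipped within same-numbered libraries. This gave exact permutation p = 0.125 for Psmb8 to Psmb5, 0.25 for Psmb9 to Psmb6 and 0.0625 for Psmb10 to Psmb7 (adjusted 0.188, 0.25 and 0.188). With 32 sign assignments the smallest exact permutation p is 0.0625, so no ratio could pass at 0.05 with this pairing. The paired test therefore cannot decide whether the ratios differ.

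Of the members, signs changed in those not past the test as counted. With the length trend removed, with and without the replicate block, log2 fold changes turned to 0.08 in Psma1, 0.14 in Psma3, 0.07 in Psma6, 0.07 and 0.06 (block) in Psma7, 0.08 in Psmb2, 0.02 in Psmb4, 0.03 in Psmb7, 0.10 in Psmc1, 0.11 in Psmc2, 0.10 in Psmc3, 0.05 in Psmc4, 0.03 and 0.04 (block) in Psmc5, 0.04 in Psmd14, 0.05 in Psmd3, 0.15 in Psmd4, 0.17 in Psmd6 and 0.12 in Psmd7, and to 0.01 in Psmd8 with the block. Without Control 1 and Control 5 they turned to 0.03 in Psma3 and Psmd7, 0.02 in Psmc1 and Psmc2, 0.01 in Psmc3 and 0.05 in Psmd4 and Psmd6. With library totals Psmc6 and Psmd12 turned to -0.03. Single omissions gave -0.06 to 0.02 in Psma3, -0.04 to 0.02 in Psmc2 and Psmd6, -0.08 to 0.01 in Psmc3, -0.08 to 0.04 in Psmd4 and -0.07 to 0.03 in Psmd7. Under single omissions the log2 ratio of Psmb8 to Psmb5 differed by -0.15 to 0.03, that of Psmb9 to Psmb6 by -0.25 to -0.07, and that of Psmb10 to Psmb7 by -0.40 to -0.22, past the test without Control 1 (adjusted exact permutation p = 0.0476). Without Control 1 and Control 5 they were -0.18, -0.33 and -0.39. The cause of these changes was not tested beyond the construction of each alternative.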
